A study of Homo sapiens with 8 samples.

Results

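The genes described here write, remove or read methyl groups on histones and on DNA, or belong to the Polycomb repressive complexes. The list holds 48 genes by name, and each gene was represented by the probe set that was brightest on average among those annotated with that symbol and no other. A probe set of that kind was present for 45 of the 48 genes, out of 19775 genes in the whole table, and all 45 entered the tests, which covered 13373 genes. BMI1, whose probe set is annotated with a second gene as well, and RNF2 and CBX8 were not analysed here.

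The levels come from HCT116, an established human colorectal carcinoma line and the only line used. Cultures were treated for 10 h with FK228 at 20 nM, largazole at 20 nM, SAHA at 2 µM or vehicle, the agent in the vehicle not being named in the labels, with 2 Affymetrix U133 arrays a group and 8 in all. All 3 compounds inhibit histone deacetylases: FK228 and largazole are cyclic depsipeptides that release a thiol inside the cell, from a disulfide in FK228 and from a thioester in largazole, and SAHA is a linear hydroxamic acid. Duplicates are all that the labels mention, with no word on separate cultures, and the p-values therefore cover only the spread between these samples, which may be technical.

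As background, DNMT3A and DNMT3B place methyl groups on unmethylated CpG sites, UHRF1 and DNMT1 copy them at replication, and the TET dioxygenases oxidise them. Methylated lysine 9 of histone H3 is bound by the HP1 proteins and marks heterochromatin. Methylation of lysine 27 by Polycomb repressive complex 2 (PRC2) and ubiquitination of histone H2A by Polycomb repressive complex 1 (PRC1) keep developmental genes silent, and histone deacetylases often act at the same silenced sites.

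All 8 arrays had medians between 4.47 and 4.51 on the deposited log2 scale, and the 2 arrays of a group correlated at 0.995 to 0.997 over probe sets. Of 12 markers of intestinal epithelium, 10 passed the filter on low values (a second-highest array of at least 4.49), LGR5 and CDH17 being the exceptions. Of 7 leukocyte markers 1 passed (ITGAM), and of 9 fibroblast and endothelial markers 5 passed. Of the passing epithelial markers 1 was called higher and 3 lower with FK228, and 2 higher and 3 lower with largazole and with SAHA, the extremes being CLDN4 at -1.66 with FK228 and CDH1 at 0.78 with SAHA. In the fibroblast list COL1A1 was called higher with each compound (0.60, 1.27 and 0.73 with FK228, largazole and SAHA) and PDGFRB lower with SAHA (-0.37). The mean log2 level of the epithelial list was 7.95 to 8.02 on the FK228 arrays, 8.10 to 8.13 on the largazole arrays, 8.11 to 8.14 on the SAHA arrays and 8.13 to 8.16 on the vehicle arrays, and the means of the fibroblast list were 4.42 to 4.49, 4.499 to 4.505, 4.34 to 4.497 and 4.37 to 4.46 in the same order of groups. The leukocyte list, whose general marker PTPRC did not pass, averaged 3.62 to 3.70, 3.58 to 3.72, 3.56 to 3.68 and 3.54 to 3.61. Their part in the results below was not tested. In bulk RNA, fewer cells of a type and less RNA per cell cannot be told apart.

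More members fell than rose with each compound. A gene was called when its adjusted p was under 0.05 in limma's test across all probe sets with Benjamini-Hochberg adjustment. With FK228, 8 members rose and 22 fell of 45, which is 66.7% called, where 52.8% of all tested genes were called, 25.7% higher and 27% lower. With largazole 6 rose and 21 fell (60%), against 45.2% of all tested genes, 21.9% higher and 23.2% lower. With SAHA 7 rose and 18 fell (55.6%), against 47.4% of all tested genes, 22.1% higher and 25.2% lower. In each comparison the share of members that fell was above, and the share that rose below, that of all tested genes, and no test of the list was made.

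The median log2 difference from vehicle over the 45 members was -0.28 with FK228, -0.23 with largazole and -0.23 with SAHA, while the medians over all tested genes were 0.01, 0.00 and -0.02. A called change of at least 2-fold was found with FK228 in 1 member that rose (JARID2) and 7 that fell (DNMT3A, TET1, TET2, TET3, SUV39H1, SETDB1 and PHF19), where 13.9% of all tested genes changed by that much. With largazole 3 members fell that far (TET2, TET3 and PHF19; 9.09% of all genes in either direction), and with SAHA 4 did (the same 3 and SETDB1; 9.89%). The 3 comparisons share their vehicle arrays, so their values are given side by side and were not correlated. Since SAHA was used at another concentration, it was not tested against FK228 or largazole.

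**Figure D1:**
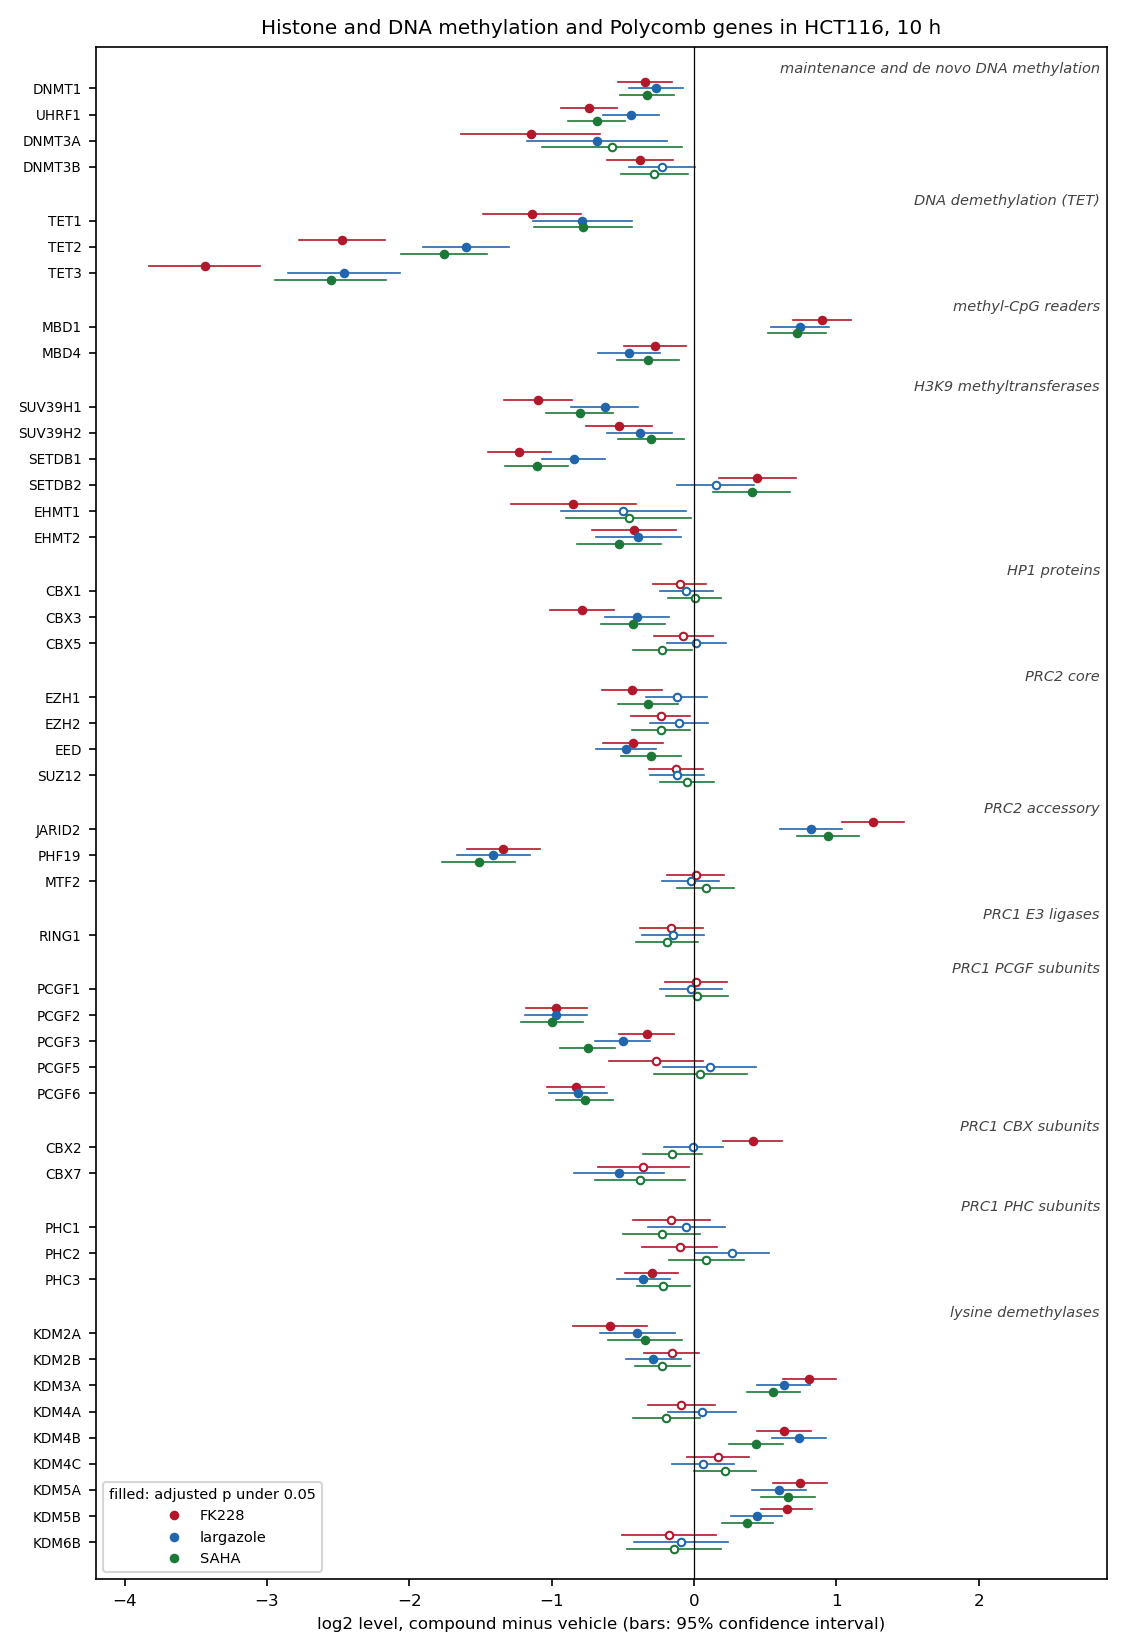
Log2 difference from vehicle of the 45 measured members, grouped by role down the page, for FK228, largazole and SAHA (points, with 95% confidence intervals; filled points were called). TET3 lies farthest to the left with every compound, at -3.44 with FK228, and JARID2 farthest to the right, at 1.26 with FK228.

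On the brightest probe set of each member, the largest falls were in TET3 and TET2, whose products start active removal of DNA methylation. On the same reading JARID2, a PRC2 partner, rose most. The promoters of the TET genes and of the member that rose most are shown as RefSeq windows of GRCh38.p14 from 250 bases before to 50 after a transcription start, on the plus strand, at chr10:68560087-68560386 (TET1), chr4:105145625-105145924 (TET2), chr2:73984660-73984959 (TET3) and chr6:15245819-15246118 (JARID2). Where a gene has several annotated starts, the window lowest on the chromosome is given. Capitals mark matches on either strand to the E-box CACGTG, to the CCAAT box, or to TTTGAA, known from promoters of cell cycle genes.
TET1: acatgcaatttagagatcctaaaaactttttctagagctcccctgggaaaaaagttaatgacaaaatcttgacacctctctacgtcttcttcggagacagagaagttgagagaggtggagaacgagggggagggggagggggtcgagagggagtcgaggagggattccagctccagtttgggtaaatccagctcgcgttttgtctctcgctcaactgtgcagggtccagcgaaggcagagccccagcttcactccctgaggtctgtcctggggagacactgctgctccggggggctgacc
TET2: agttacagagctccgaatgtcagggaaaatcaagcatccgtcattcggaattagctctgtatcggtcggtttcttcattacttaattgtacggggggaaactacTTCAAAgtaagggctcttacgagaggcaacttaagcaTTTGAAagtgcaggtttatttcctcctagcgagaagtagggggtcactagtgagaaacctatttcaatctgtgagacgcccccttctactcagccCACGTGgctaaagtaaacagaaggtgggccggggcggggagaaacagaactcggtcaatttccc
TET3: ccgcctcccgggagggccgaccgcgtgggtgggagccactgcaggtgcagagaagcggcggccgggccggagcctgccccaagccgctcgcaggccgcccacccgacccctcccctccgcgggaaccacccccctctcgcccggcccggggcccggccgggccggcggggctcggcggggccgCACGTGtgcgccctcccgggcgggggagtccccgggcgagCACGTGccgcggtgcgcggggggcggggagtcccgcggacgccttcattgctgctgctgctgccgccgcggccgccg
JARID2: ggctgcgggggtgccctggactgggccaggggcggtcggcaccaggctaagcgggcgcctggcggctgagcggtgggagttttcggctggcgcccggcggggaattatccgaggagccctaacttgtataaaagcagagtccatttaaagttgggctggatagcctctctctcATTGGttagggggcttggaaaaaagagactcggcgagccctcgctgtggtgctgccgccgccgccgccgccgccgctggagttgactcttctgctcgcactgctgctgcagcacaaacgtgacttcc
The windows differ in composition: 10 CpG dinucleotides and 54.3% GC for TET1, 13 and 47.7% for TET2, 45 and 82.7% for TET3, and 24 and 64.0% for JARID2. TET3 holds CACGTG, an E-box, at -67 and -27 from the start and TET2 holds it at -14, TET2 also has TTTGAA at -109 and, on the minus strand, at -146, JARID2 has CCAAT on the minus strand at -77, and TET1 has no match to any of the 3. The E2F letters TTCGCGC and, in another form, TTGGCGC were searched too and are in none of these 4 windows. Windows at the other annotated starts differ: that of TET2 has 35 CpG dinucleotides, 68.0% GC and none of these motifs. That of TET3 holds CCAAT and no CACGTG, those of TET1 hold CCAAT, and that of JARID2 has no match. Which start is used in HCT116 was not tested.

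Promoter windows were found for 44 of the 45 measured members, all but CBX2, and numbered 73. Their median was 28 CpG dinucleotides (range 2 to 55) and 68.0% GC, against 14 and 58.7% over all 35116 windows. CACGTG was in 16.4% of member windows and 7.26% of all windows, CCAAT in 41.1% and 34.6%, TTTGAA in 9.59% and 15.2%, TTCGCGC in 4.11% and 2.24%, and TTGGCGC in 2.74% and 3.04%, searched on both strands. Matches may overlap, and windows of 1 gene can share bases. A letter match is a description of the window and not a site of binding.

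All 3 TET genes fell with all 3 compounds. TET3 read 4.35 and 4.53 on the FK228 arrays, 5.40 and 5.44 on the largazole arrays, 5.15 and 5.50 on the SAHA arrays, and 8.10 and 7.66 on the vehicle arrays. Every treated array lay far below both vehicle arrays. A lack of overlap with the vehicle arrays, by any margin and in either direction, was found for 76.2% of all tested genes with FK228 (74.4% with largazole and 73% with SAHA). The log2 difference was -3.44 with FK228 (SE 0.17 for each; adjusted p = 4.84e-06, limma), -2.46 with largazole (adjusted p = 3.69e-05) and -2.55 with SAHA (adjusted p = 2.78e-05).

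TET2 read 4.59 and 4.48 with FK228, 5.57 and 5.24 with largazole, 5.17 and 5.32 with SAHA, and 7.10 and 6.91 with vehicle. Its difference was -2.47 with FK228, -1.60 with largazole and -1.76 with SAHA (SE 0.13; adjusted p = 6.21e-06, 7.21e-05 and 4.28e-05, limma), so the FK228 arrays were again the lowest. TET1 read 4.34 and 4.04 with FK228, 4.43 and 4.65 with largazole, 4.45 and 4.64 with SAHA, and 5.19 and 5.47 with vehicle. It fell by 1.14 with FK228 and by 0.78 with each of largazole and SAHA on the log2 scale (SE 0.15; adjusted p = 0.000447, 0.00407 and 0.00376, limma).

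These 3 genes were the only members with any array under the filter value of 4.49 (4 arrays for TET1, 1 FK228 array each for TET2 and TET3), so the size of their falls is less certain than the direction. With a gene's probe sets averaged in place of the brightest, TET3 stood at -1.93 with FK228 and -1.70 with SAHA, and TET2 at -1.10 with SAHA, all still called. The second tested TET3 probe set differed by -0.42 with FK228, not called (adjusted p = 0.0547, limma), and fell by 0.90 with largazole and by 0.85 with SAHA (adjusted p = 0.0026 and 0.00315).

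**Figure D2:**
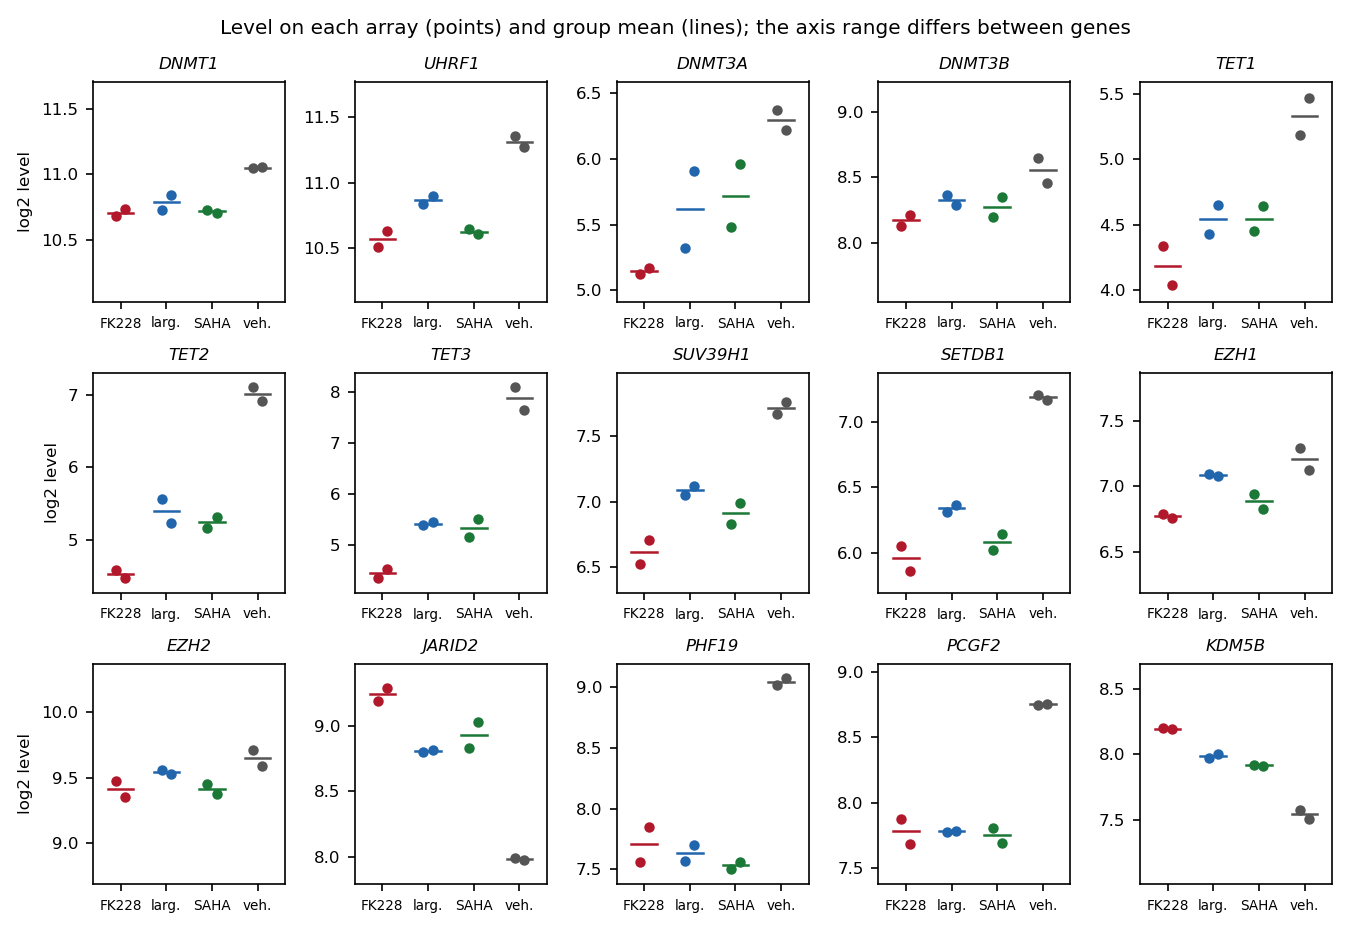
Deposited log2 level of 15 members on each of the 8 arrays (points), with groups from left to right FK228, largazole, SAHA and vehicle. The TET genes, SETDB1 and PHF19 sit below their vehicle arrays in every treated group, JARID2 and KDM5B sit above them, and EZH2 moves little.

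Genes that write and maintain DNA methylation fell as well. All 4 genes of this role fell with FK228, 3 of 4 with largazole and 2 of 4 with SAHA. Of all tested genes 27%, 23.2% and 25.2% fell, in the same order. UHRF1, which brings DNMT1 to newly replicated DNA, read 10.51 and 10.63 with FK228, 10.84 and 10.90 with largazole, 10.65 and 10.61 with SAHA, and 11.35 and 11.27 with vehicle. That is a difference of -0.74 with FK228, -0.44 with largazole and -0.68 with SAHA (SE 0.09; adjusted p = 0.000245, 0.00452 and 0.000484, limma). DNMT1, the maintenance methyltransferase, read 10.68 and 10.73 with FK228, 10.73 and 10.84 with largazole, 10.73 and 10.71 with SAHA, and 11.04 and 11.05 with vehicle. It fell by 0.34 with FK228, by 0.26 with largazole and by 0.33 with SAHA (SE 0.08; adjusted p = 0.00933, 0.034 and 0.0123, limma), and all 6 treated arrays lay below both vehicle arrays.

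DNMT3A read 5.13 and 5.17 with FK228, 5.32 and 5.91 with largazole, 5.48 and 5.96 with SAHA, and 6.37 and 6.22 with vehicle. It fell by 1.15 with FK228 and by 0.68 with largazole (SE 0.21; adjusted p = 0.00263 and 0.0342, limma), and its difference of -0.58 with SAHA was not called (adjusted p = 0.0586, limma). The 2 largazole arrays and the 2 SAHA arrays of this gene stood farther apart than its 2 FK228 or 2 vehicle arrays, and no treated array reached the vehicle arrays. DNMT3B read 8.13 and 8.21 with FK228, 8.36 and 8.29 with largazole, 8.20 and 8.35 with SAHA, and 8.65 and 8.46 with vehicle. Its fall of 0.38 was called with FK228 (SE 0.10; adjusted p = 0.0148, limma), and its differences of -0.23 with largazole and -0.28 with SAHA were not (adjusted p = 0.113 and 0.0554, limma).

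Several of these calls did not hold under every setting. DNMT1 was no longer called with largazole when either largazole array or either vehicle array was left out (adjusted p = 0.0604 to 0.197, limma), without the filter, after setting ribosomal protein genes to equal medians or further quantile normalization, or in a fit of only the 4 arrays compared (0.0505 to 0.105), or with SAHA without SAHA array 2 or either vehicle array (0.0507 to 0.0567). DNMT3A with largazole was lost without largazole array 1, where its difference was -0.39, or without either vehicle array (adjusted p = 0.0809 to 0.19), and DNMT3B with FK228 without FK228 array 1 or vehicle array 1 (0.0719 and 0.0961). Averaging its probe sets put DNMT3A at -0.66 with FK228 and -0.45 with largazole, both called. The other tested DNMT3A probe set was not called with any compound. It stood at -0.18 with FK228, -0.22 with largazole and -0.13 with SAHA (adjusted p = 0.352, 0.262 and 0.53, limma).

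Of the methyl-CpG binding members, MBD1, a transcriptional repressor, rose by 0.90 with FK228, 0.74 with largazole and 0.72 with SAHA on the log2 scale (SE 0.09; adjusted p = 0.000102, 0.000416 and 0.000416, limma). MBD4, a DNA glycosylase that repairs mismatches at methylated sites, fell by 0.28 with FK228, 0.46 with largazole and 0.32 with SAHA (SE 0.09; adjusted p = 0.0399, 0.0057 and 0.0243, limma). The 2 readers thus moved in opposite directions with each compound. Averaged over its probe sets MBD1 stood at 0.49, 0.40 and 0.42, still called with each. The MBD4 call with FK228 ended when any 1 array other than vehicle array 1 was left out (adjusted p = 0.0518 to 0.203, limma), the one with SAHA without either SAHA array or vehicle array 2 (0.0601 to 0.14), and all 3 when probe sets named _x_at or _s_at, which can match several transcripts, were left out, where it stood at -0.42 with FK228, -0.32 with largazole and -0.43 with SAHA (0.0756, 0.185 and 0.0767). It was also not called without the filter or in a fit of only the 4 arrays compared, with FK228 and with SAHA, or with ribosomal protein genes set to equal medians, with FK228 (0.0517 to 0.0988).

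Methyltransferases of histone H3 lysine 9 fell as well, except SETDB2. With FK228 5 of the 6 genes fell and 1 rose, with largazole 4 fell, and with SAHA 4 fell and 1 rose. Of all tested genes 27%, 23.2% and 25.2% fell, in the same order. SETDB1, which silences endogenous retroviruses, read 6.05 and 5.86 with FK228, 6.31 and 6.37 with largazole, 6.02 and 6.14 with SAHA, and 7.21 and 7.16 with vehicle. Its difference was -1.23 with FK228, -0.85 with largazole and -1.10 with SAHA (SE 0.10; adjusted p = 3.31e-05, 0.000337 and 8.47e-05, limma). SUV39H1, the writer of trimethylation in pericentric heterochromatin, read 6.53 and 6.71 with FK228, 7.05 and 7.12 with largazole, 6.83 and 6.99 with SAHA, and 7.66 and 7.76 with vehicle. It fell by 1.10 with FK228, 0.63 with largazole and 0.80 with SAHA (SE 0.10; adjusted p = 7.85e-05, 0.00193 and 0.000514, limma), and for both genes no treated array overlapped the vehicle arrays.

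SUV39H2, its close relative, fell by 0.53 with FK228, 0.38 with largazole and 0.30 with SAHA (adjusted p = 0.00293, 0.0168 and 0.0393, limma). EHMT1 (GLP) and EHMT2 (G9a) form the main enzyme for dimethylation in euchromatin. EHMT1 fell by 0.85 with FK228 (SE 0.19; adjusted p = 0.00681, limma) and stood at -0.50 with largazole and -0.46 with SAHA, neither called (adjusted p = 0.0708 and 0.0869). EHMT2 fell by 0.42, 0.39 and 0.53 with FK228, largazole and SAHA (SE 0.13; adjusted p = 0.0265, 0.0415 and 0.0114, limma). SETDB2, also a lysine 9 methyltransferase, rose by 0.44 with FK228 and 0.41 with SAHA (SE 0.12; adjusted p = 0.0144 and 0.0235, limma) and stood at 0.15 with largazole, not called. In this role SETDB1 and SUV39H1 were therefore the genes with large falls, and the others changed by less than 1 on the log2 scale.

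The smaller changes were the less stable ones. EHMT2 has several probe sets that disagree: their mean was 0.09 with FK228, -0.07 with largazole and -0.15 with SAHA, none called (adjusted p = 0.363, 0.514 and 0.169, limma), and 1 of them was called higher with FK228. The EHMT2 call also ended without either FK228 or either vehicle array for FK228 (adjusted p = 0.05 to 0.131, limma), without any 1 largazole, FK228 or vehicle array for largazole (0.0531 to 0.189), with equal ribosomal protein medians for FK228 (0.0503) and largazole and without the filter or after further quantile normalization for largazole (from 0.0546), and without SAHA array 1 (-0.35 on the log2 scale) or vehicle array 2 for SAHA (0.0515 and 0.0706). The SUV39H2 call ended with largazole without either largazole array or vehicle array 1 (0.0705 to 0.0914), with SAHA without the filter or on only the 4 arrays compared (0.0816 to 0.0927), and with SAHA without either largazole array, SAHA array 2 (-0.19 on the log2 scale) or either vehicle array (0.0648 to 0.197), while its probe set mean with largazole was larger, at -0.58. SETDB2 was lost with FK228 without FK228 array 2 or vehicle array 2 (0.0578 and 0.0869) and with SAHA without either SAHA array or vehicle array 2, where it stood at 0.26 (0.0713 to 0.139), and its probe set mean with FK228 was 0.27, still called.

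Among the HP1 proteins, which bind methylated lysine 9, CBX3 (HP1 gamma) fell and the other 2 were not called. CBX3 averaged 11.49 with FK228, 11.87 with largazole, 11.85 with SAHA and 12.28 with vehicle, a difference of -0.79, -0.40 and -0.43 (SE 0.10; adjusted p = 0.000329, 0.012 and 0.00823, limma). CBX1 (HP1 beta) stood at -0.10, -0.06 and 0.00 and CBX5 (HP1 alpha) at -0.08, 0.01 and -0.22, in the same order. The 95% interval for CBX5 with SAHA ran from -0.43 to -0.02. The CBX3 call was lost with largazole without largazole array 2 or vehicle array 1 (adjusted p = 0.0751 and 0.0762, limma) and with SAHA without vehicle array 1 (0.0543), whereas on the probe sets not named _x_at or _s_at it stood at -1.33 with FK228 and -1.47 with SAHA. A further bright CBX3 probe set was not called with any compound, at -0.47 with FK228, 0.03 with largazole and -0.08 with SAHA (adjusted p = 0.0846, 0.932 and 0.792, limma). Averaged over its probe sets, CBX5 was called lower, at -0.40 with FK228, -0.50 with largazole and -0.34 with SAHA.

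Of the 4 core genes of PRC2, EZH1 and EED fell with FK228 and SAHA and EED with largazole, each by less than 0.5 on the log2 scale. EZH2, its main methyltransferase in dividing cells, read 9.47 and 9.35 with FK228, 9.56 and 9.53 with largazole, 9.45 and 9.38 with SAHA, and 9.71 and 9.59 with vehicle. Its difference was -0.24 with FK228 (95% interval -0.44 to -0.03), -0.11 with largazole (-0.31 to 0.10) and -0.23 with SAHA (-0.44 to -0.03), none of them called (adjusted p = 0.0588, 0.393 and 0.0666, limma). All treated arrays were below both vehicle arrays by a small amount. A lack of overlap in either direction was found for 76.2%, 74.4% and 73% of all tested genes with FK228, largazole and SAHA. Of the 9 settings other than leaving out an array, 5 called EZH2 lower with FK228 and 5 with SAHA (adjusted p = 0.0194 to 0.0371 and 0.0225 to 0.0486, limma). Leaving out an array never led to a call of EZH2. EZH1, the enzyme of resting cells, read 6.79 and 6.76 with FK228, 7.09 and 7.08 with largazole, 6.94 and 6.83 with SAHA, and 7.29 and 7.13 with vehicle. It fell by 0.44 with FK228 and 0.33 with SAHA (SE 0.09; adjusted p = 0.00496 and 0.0211, limma) and stood at -0.12 with largazole, not called.

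EED, which binds the methylated histone tail, fell by 0.43 with FK228, 0.48 with largazole and 0.31 with SAHA (SE 0.09; adjusted p = 0.0053, 0.00396 and 0.0272, limma). SUZ12, the scaffold subunit, stood at -0.13, -0.12 and -0.05, not called. The calls with SAHA were the less stable ones: EZH1 was lost without SAHA array 2 or vehicle array 1 (adjusted p = 0.104 and 0.124, limma) and EED without SAHA array 2 or either vehicle array (0.0829 to 0.14), and both without the filter or in a fit of only the 4 arrays compared (0.057 to 0.0581 for EZH1 and 0.0686 to 0.074 for EED). The EZH1 call with FK228 was lost with the mean of its probe sets, at -0.17 (0.118).

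Of the 3 accessory subunits of PRC2, JARID2 rose and PHF19 fell with each compound, and MTF2 was not called. JARID2, which helps recruit PRC2 and stimulates its activity, read 9.19 and 9.29 with FK228, 8.80 and 8.82 with largazole, 8.83 and 9.03 with SAHA, and 7.99 and 7.98 with vehicle. It rose by 1.26 with FK228, 0.82 with largazole and 0.94 with SAHA (SE 0.09; adjusted p = 2.73e-05, 0.000357 and 0.000162, limma), or 2.39-fold, 1.77-fold and 1.92-fold. PHF19, a Polycomb-like subunit, read 7.56 and 7.85 with FK228, 7.57 and 7.70 with largazole, 7.502 and 7.563 with SAHA, and 9.02 and 9.07 with vehicle. It fell by 1.34 with FK228, 1.41 with largazole and 1.51 with SAHA (SE 0.11; adjusted p = 4.47e-05, 6.37e-05 and 4.16e-05, limma). MTF2, the other Polycomb-like subunit listed, stood at 0.01, -0.02 and 0.08, not called, with every interval between -0.22 and 0.28.

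In PRC1, 2 of the PCGF subunits, which define the variants of the complex, fell clearly. PCGF2 (MEL18) averaged 7.78 with FK228, 7.78 with largazole, 7.75 with SAHA and 8.75 with vehicle, a difference of -0.97, -0.97 and -0.997 (SE 0.09; adjusted p = 9.41e-05, 0.000161 and 0.000121, limma). PCGF6, of a variant complex, averaged 7.99, 8.01 and 8.06 with FK228, largazole and SAHA and 8.83 with vehicle, so it fell by 0.83, 0.82 and 0.77 (SE 0.09; adjusted p = 0.000144, 0.000256 and 0.000301, limma). For these 2 genes the differences with the 3 compounds lay within their standard error of one another. PCGF3 fell by 0.33, 0.50 and 0.75 in the same order (SE 0.08; adjusted p = 0.0118, 0.00213 and 0.000272, limma), and PCGF1 and PCGF5 were not called.

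RING1, a ubiquitin ligase of PRC1, stood at -0.16, -0.15 and -0.19 with FK228, largazole and SAHA, not called. CBX2, a chromobox subunit, averaged 9.17 with FK228, 8.75 with largazole, 8.61 with SAHA and 8.76 with vehicle, and it rose by 0.41 with FK228 (SE 0.09; adjusted p = 0.00615, limma). It stood at -0.01 with largazole and -0.15 with SAHA, not called, and both FK228 arrays lay above all other arrays. CBX7 fell by 0.53 with largazole (SE 0.14; adjusted p = 0.0167, limma) and stood at -0.36 with FK228 and -0.38 with SAHA, not called. PHC3, a Polyhomeotic subunit, fell by 0.30 with FK228 and 0.36 with largazole (adjusted p = 0.0158 and 0.00875, limma) and stood at -0.22 with SAHA, while PHC1 and PHC2 were not called.

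For PCGF3 the probe sets disagreed, and their mean was not called with any compound (-0.06 with FK228, -0.14 with largazole and -0.19 with SAHA; adjusted p = 0.495, 0.168 and 0.0675, limma). The mean for CBX2 with FK228 was 0.16 (adjusted p = 0.0767). Leaving out FK228 array 1 or vehicle array 1 ended the PCGF3 call with FK228 (adjusted p = 0.0586 and 0.0776, limma). Leaving out any 1 largazole or vehicle array ended that of CBX7 (0.0666 to 0.073), largazole array 2 that of PHC3 with largazole (0.0615), and either FK228 array or vehicle array 1 that of PHC3 with FK228 (0.0569 to 0.0779; 0.0536 without the filter), while CBX7 was called with FK228 at -0.57 without FK228 array 2 (0.00535). PHC2 averaged over its probe sets was called higher with each compound, at 0.55 with FK228, 1.13 with largazole and 0.66 with SAHA. Its brightest probe set stood at -0.10, 0.265 and 0.085 in the same order, so its 2 tested probe sets disagreed. With largazole the PHC2 average was above the 0.82 of JARID2 on its brightest probe set.

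Among the listed lysine demethylases rises outnumbered falls with each compound. Of these 9 genes, 4 rose with each compound, and 1 fell with FK228, 2 with largazole and 1 with SAHA. The share called was 55.6%, 66.7% and 55.6% in that order, against 52.8%, 45.2% and 47.4% of all tested genes. Of all tested genes 25.7%, 21.9% and 22.1% rose and 27%, 23.2% and 25.2% fell. The 15 other histone demethylase genes given below fell more often than they rose. Of these, 46.7% were called with each compound, near the share of all tested genes. KDM5B, which removes methyl groups from lysine 4 of histone H3, read 8.20 and 8.19 with FK228, 7.967 and 7.999 with largazole, 7.92 and 7.91 with SAHA, and 7.58 and 7.51 with vehicle. Its difference was 0.65 with FK228, 0.44 with largazole and 0.37 with SAHA (SE 0.08; adjusted p = 0.000276, 0.00279 and 0.00559, limma). KDM5A, of the same family, rose by 0.74, 0.60 and 0.66 (SE 0.08; adjusted p = 0.00018, 0.000829 and 0.000455, limma). KDM3A and KDM4B, which act on lysine 9, rose as well: KDM3A by 0.81, 0.63 and 0.56 (SE 0.08; adjusted p = 0.000108, 0.000593 and 0.000949, limma).

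KDM4B rose by 0.63 with FK228, 0.73 with largazole and 0.43 with SAHA (SE 0.08; adjusted p = 0.000443, 0.000314 and 0.00356, limma). KDM2A, a demethylase of lysine 36 that binds CpG islands, fell by 0.59 with FK228, 0.40 with largazole and 0.35 with SAHA (SE 0.11; adjusted p = 0.00314, 0.024 and 0.0392, limma), and its relative KDM2B, which brings a variant PRC1 to such islands, fell by 0.29 with largazole (adjusted p = 0.0258, limma). KDM2B stood at -0.16 with FK228 and -0.22 with SAHA, not called. KDM4A, KDM4C and KDM6B, the last a demethylase of the PRC2 mark, were not called with any compound, with KDM6B at -0.18, -0.09 and -0.14 and KDM4C at 0.17, 0.06 and 0.22. Averaged over its probe sets, KDM4C was called higher with each, at 0.36, 0.25 and 0.45 (adjusted p = 0.00344, 0.0234 and 0.00121, limma).

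KDM2A was not called with largazole without either largazole array or vehicle array 1 (adjusted p = 0.0653 to 0.138, limma; -0.26 on the log2 scale without vehicle array 1) or without the filter (0.0517), or with SAHA without either largazole array, either SAHA array or vehicle array 1 (0.0596 to 0.217; -0.21 without vehicle array 1), without the filter or on only the 4 arrays compared (0.0654 to 0.0817). KDM2B with largazole was lost without any 1 largazole or vehicle array (0.0668 to 0.143), without the filter or after further quantile normalization (0.0502 to 0.0811). Averaged over its probe sets KDM2A stood at -0.25 with FK228 and -0.21 with largazole and KDM5A at 0.44 and 0.38, all called, and on probe sets not named _x_at or _s_at KDM5A stood at 0.42 and 0.37.

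The position of the members among all genes can be read from the distribution of differences. Members beyond 1 on the log2 scale are those named above as called with at least a 2-fold change, with TET2, TET3 and PHF19 below -1 with every compound.

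**Figure D3:**
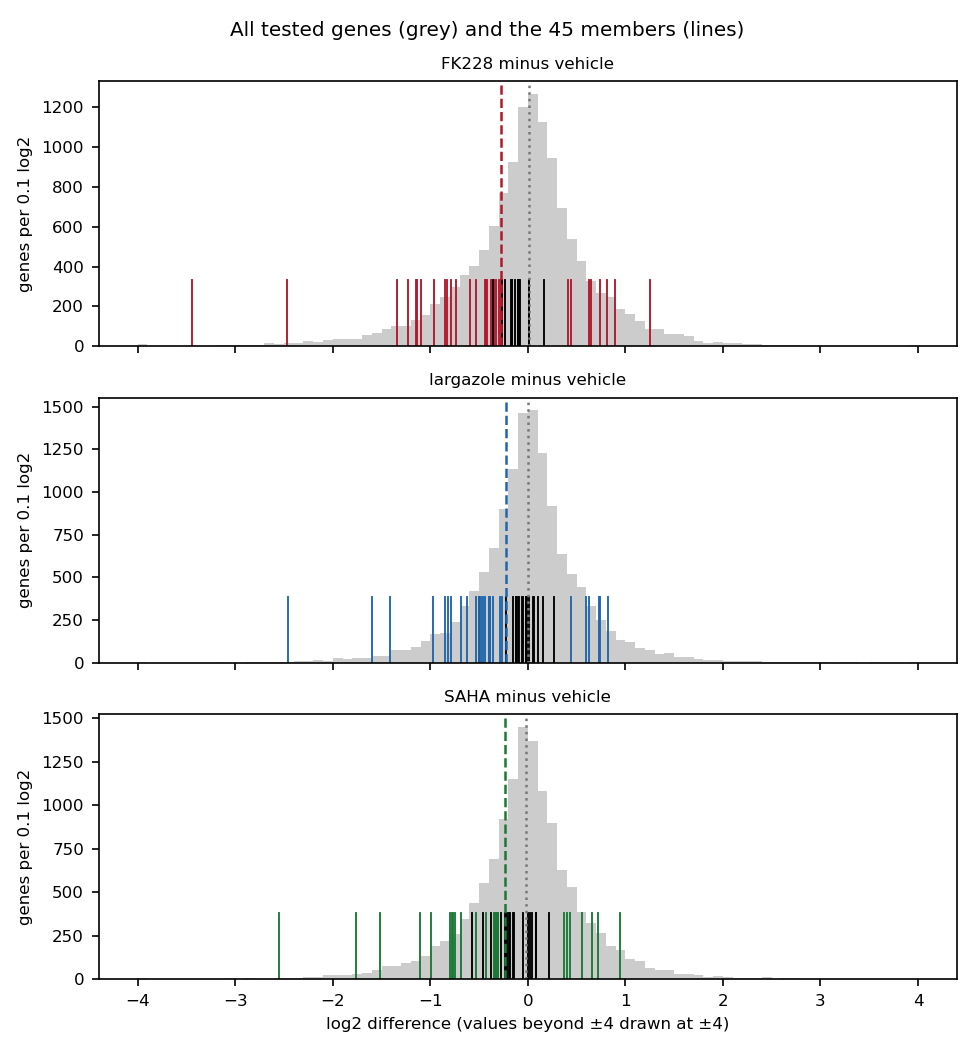
Histogram of the log2 difference from vehicle over all 13373 tested genes, in panels for FK228, largazole and SAHA, with the members as vertical lines, the median of all genes dotted and the median of the members dashed. The members' median lies left of that of all genes in each panel, at -0.28 against 0.01 with FK228.

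FK228 and largazole were used at the same concentration and time, so they were compared directly in 45 members as part of the fit over all probe sets. Of the 45, 2 were higher with FK228 and 3 lower (11.1% called), where 9.06% of all tested genes were called, 4.19% higher and 4.88% lower. TET2 was lower with FK228 by 0.87 on the log2 scale (SE 0.13; adjusted p = 0.0117, limma), TET3 by 0.98 (SE 0.17; adjusted p = 0.0171) and SUV39H1 by 0.47 (SE 0.10; adjusted p = 0.0344). JARID2 was higher with FK228 by 0.43 (SE 0.09; adjusted p = 0.0341, limma) and CBX2 by 0.42 (SE 0.09; adjusted p = 0.0335). On these probe sets TET2, TET3, SUV39H1 and JARID2 had moved the same way from vehicle with both compounds and farther with FK228, but the other tested TET3 probe set stood 0.48 higher with FK228 than with largazole, not called (adjusted p = 0.105, limma). For CBX2 a change from vehicle was called with FK228 only. No member differed by 2-fold or more, where 0.523% of all tested genes did.

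For the other 40 members the 95% interval of the difference between FK228 and largazole lay within 1 on the log2 scale on either side of 0, and for 31 of them within 0.5. The lowest bound was -0.96 (DNMT3A) and the highest 0.56 (SETDB2), so differences below 2-fold remain possible for these genes. PHF19 at 0.07, PCGF2 at 0.00 and PCGF6 at -0.01 were nearly equal with both compounds, with intervals of -0.19 to 0.33, -0.22 to 0.22 and -0.22 to 0.19. UHRF1 at -0.30, SETDB1 at -0.38 and CBX3 at -0.38 were lower with FK228 without being called (adjusted p = 0.0789, 0.0515 and 0.0523, limma).

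None of the 5 calls between FK228 and largazole held under every setting, and the number of members called ran from 0 to 11. TET2 was lost without largazole array 1 or FK228 array 2 (adjusted p = 0.0559 to 0.0812, limma), TET3 without any 1 FK228 or largazole array (0.0515 to 0.101), and SUV39H1 (0.0534 to 0.159), JARID2 (0.0571 to 0.175) and CBX2 (0.0549 to 0.202) without any 1 FK228, largazole or vehicle array. These last 3 were also lost without the filter and on only the 4 arrays compared, and SUV39H1 with equal ribosomal protein medians (0.053 to 0.0804 for SUV39H1, 0.0591 to 0.0857 for JARID2). Averaged probe sets gave -0.54 for TET2, still called, -0.25 for TET3 (adjusted p = 0.0889) and 0.13 for CBX2 (0.236).

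**Figure D4:**
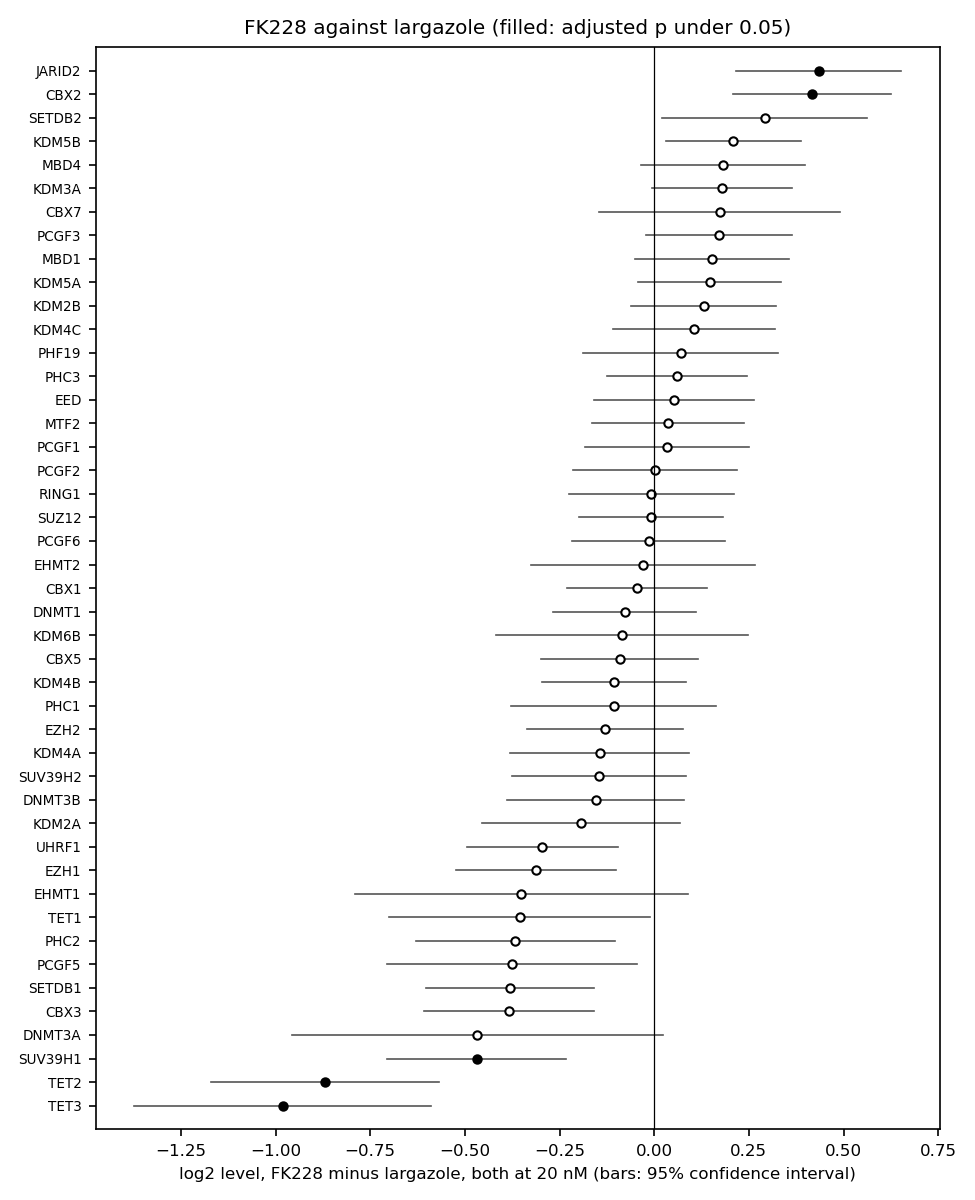
Log2 difference of FK228 minus largazole for the 45 measured members (points, with 95% confidence intervals, filled where called). Members are ordered by this difference, from the highest at the top to the lowest. TET3 at -0.98 and TET2 at -0.87 lie farthest to the left, and JARID2 at 0.43 and CBX2 at 0.42 farthest to the right.

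Other probe sets of the same genes gave a second reading. There were 67 further tested probe sets for 31 of the members. Of the 47 that belong to members called with FK228, 39 had the sign of the brightest probe set, 24 were called the same way and 1 the opposite way (EHMT2), where 49% of all tested probe sets were called. With largazole these counts were 40, 36, 22 and 1 (40.7% of all probe sets called), and with SAHA 41, 37, 26 and 0 (43.7%). JARID2, PHF19, PCGF2 and KDM5B had the same direction on every tested probe set with FK228.

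Related genes outside the list are given by their counts, which were not tested as groups, to be read against the 52.8%, 45.2% and 47.4% of all tested genes called with FK228, largazole and SAHA. Of 22 tested genes of other Polycomb and H2A deubiquitinase functions, 5 rose and 11 fell with FK228, 4 rose and 6 fell with largazole, and 5 rose and 8 fell with SAHA. SCML1, a Polycomb group homologue, rose by 1.96 with FK228, 1.65 with largazole and 1.84 with SAHA on the log2 scale (SE 0.12; adjusted p = 1.21e-05, 4.82e-05 and 2.75e-05, limma), and RYBP, of variant PRC1, by 0.94, 0.90 and 0.91 (SE 0.11; adjusted p = 0.000263, 0.000518 and 0.000437). BCOR, the corepressor of a PCGF1-containing complex, fell by 1.12 with FK228 (SE 0.11; adjusted p = 8.78e-05, limma) and stood at -0.07 with largazole, and the difference between the compounds was -1.05 (adjusted p = 0.00336). BCOR also passed the threshold with SAHA, at -0.31 (adjusted p = 0.0474), and lost that call under 12 of the settings tried, among them the omission of any 1 FK228 or largazole array, SAHA array 2 or vehicle array 2 (0.0528 to 0.255 over the 12).

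Of 25 genes that act on methylation of H3 lysine 4, 36 or 79 or of H4 lysine 20, 7 rose and 12 fell with FK228, 3 rose and 11 fell with largazole, and 3 rose and 12 fell with SAHA. SETD1B, a lysine 4 methyltransferase, fell with each compound, its difference being -3.05 with FK228, -2.07 with largazole and -2.38 with SAHA (SE 0.10; adjusted p = 1.06e-06, 9.47e-06 and 5.36e-06, limma). KMT2D, of the same function, fell by 1.80, 1.35 and 1.09 in the same order, and on the mean of its probe sets by less, at -0.70, -0.53 and -0.40. RBBP5, a shared subunit of these complexes, rose by 1.39, 0.86 and 1.13 (SE 0.12; adjusted p = 4.81e-05, 0.000809 and 0.000187, limma).

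Of 15 other histone demethylase genes, 2 rose and 5 fell with FK228, and 1 rose and 6 fell with largazole and with SAHA. PHF2, of the Jumonji family, fell by 2.04, 1.48 and 1.71 with FK228, largazole and SAHA (SE 0.18; adjusted p = 5.69e-05, 0.000449 and 0.000198, limma), and KDM1B, a lysine 4 demethylase, rose by 1.07, 1.13 and 1.17 (SE 0.14; adjusted p = 0.000369, 0.000438 and 0.000327). A list of other methyl-CpG binding and DNA demethylation genes also held genes of other functions, among them DMAP1, TRDMT1, TRIM28, ATRX and DAXX. Of its 15 tested genes, 2 rose and 9 fell with FK228, 1 and 6 with largazole, and 1 and 7 with SAHA. The rises were in DMAP1 and TRDMT1 with FK228 and in TRDMT1 alone with largazole and with SAHA. ZBTB38, a zinc finger protein that binds methylated DNA, fell by 2.14, 1.39 and 1.38 (SE 0.12; adjusted p = 9.43e-06, 0.000117 and 0.000103, limma). Of 10 genes listed for protein arginine methylation, 1 rose and 4 fell with FK228, 1 and 6 with largazole, and 1 and 5 with SAHA, with PRMT6 at -1.98, -1.11 and -1.13. The falls with largazole and with SAHA include WDR77 (-0.44 and -0.33), a cofactor of PRMT5 and not itself a methyltransferase.

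Genes often silenced by DNA methylation gave a mixed picture on these arrays. Of 28 genes with known promoter methylation in colorectal cancer, 15 passed the filter on low values, of which 4 rose and 2 fell with FK228, 5 rose and 2 fell with largazole, and 4 rose and 2 fell with SAHA. That is 40%, 46.7% and 40% called, against 52.8%, 45.2% and 47.4% of all tested genes. The fall of CDKN2A with FK228 ended under 12 of the settings tried. The rises of HLTF with FK228 and SOCS1 with largazole ended under 6 and 4 of them. NDRG4 rose by 1.91 with FK228, 1.91 with largazole and 1.41 with SAHA (SE 0.12; adjusted p = 1.08e-05, 2.2e-05 and 6.59e-05, limma). Of 21 germline genes that depend on DNA methylation for silencing, 3 passed the filter and none of these was called by limma in the 3 comparisons with vehicle. On the vehicle arrays MAGEB2 read 11.147 and 11.316, MAGEA1 5.175 and 5.109, and TEX101, near the filter value, 4.378 and 4.546. MAGEB2 was thus already expressed with vehicle, and the listed genes under the filter were not tested. Methylation itself, of DNA or of histones, was not measured.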

How the data were processed

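The labels describe biotin-labelled RNA on Affymetrix U133 2.0 arrays. The authors deposited log2 levels per probe set, and, per the submitters' processing notes, affy, RMA and limma were used, with no version, role or order, so the steps behind them are not given in the sources used here. Of 54613 probe sets, 41091 have 1 gene symbol in the platform annotation, 1801 several and 11721 none, and 41037 matched the RefSeq table by gene ID. Probe sets whose second-highest value reached the median of all values (4.49) were tested, 28985 in all. All 8 arrays entered 1 limma model (version 3.58.1, R 4.3.3) with a coefficient for each group (4 residual and 3.69 prior degrees of freedom) and Benjamini-Hochberg adjustment over all tested probe sets. A 95% interval of a log2 difference had a median half-width of 0.26 over genes, and the number of arrays limits the precision. Permutation of 2 against 2 arrays reaches an exact p of 0.333 at the lowest, so no such test was run. On data simulated for FK228 against vehicle (28985 probe sets), 50 probe sets were shifted by each size: none of those shifted 1.2-fold were called, 21 of the 1.5-fold ones, 38 of the 2-fold ones and all 50 of the 4-fold ones, and 8 of the 117 calls were false. Few of the simulated probe sets were shifted, whereas 49% of the tested probe sets were called with FK228 in the data. The adjustment was therefore stricter in the simulation, and its recovery counts do not give the power of the comparisons made here. Tables, promoters and figures used Python 3.11.15, pandas 2.3.3 and matplotlib 3.10.9.

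The members and the other gene lists were chosen with earlier results of these data known. Values on every array are given for each member called with a log2 difference of at least 1 in any comparison and for DNMT1, UHRF1, DNMT3A, DNMT3B, EZH1, EZH2, SUV39H1, SETDB1 and KDM5B. From each other list, genes were taken from the 2 highest and 2 lowest called with a compound. Some genes of the other lists are not reported here.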

Additional observations from a re-analysis of the deposited data

How the results depend on the processing

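Each comparison was recomputed under 9 other settings and with each array left out in turn, the lone array of a group being assumed to vary like the others. Over the 3000 member values, 2773 kept their side of the threshold, 77 passed it newly, 145 lost it and 5 reversed direction, being called before or after. Differences that were called neither before nor after could change sign and still count among the 2773. The calls kept under all settings in which the member was tested numbered 22 of 30 with FK228, 16 of 27 with largazole, 15 of 25 with SAHA and 0 of 5 between FK228 and largazole. Without probe sets named _x_at or _s_at, 34 members were tested, and 17 were called with largazole and 16 with SAHA. Between FK228 and largazole 2 members were called with no filter, 11 with a filter at 6.87, 9 with an intensity trend and robust prior, and 2 with only the 4 arrays concerned. Leaving out 1 array gave 25 to 29 members called with FK228, 19 to 27 with largazole, 19 to 26 with SAHA and 0 to 5 between FK228 and largazole. Averaging the probe sets of each gene gave the 5 reversals: EHMT2 at 0.0942 (adjusted p = 0.363, limma), PCGF1 at -0.2687 (0.0421) and PHC2 at 0.549 (0.000453) with FK228, CBX5 at -0.4953 (0.00242) with largazole, and PCGF1 at -0.3297 (0.0205) with SAHA; the cause was not tested.

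The labels give replicate numbers 1 and 2 and no shared batch. Deviations from the group means of same-numbered arrays correlated at 0.13 to 0.27 over the 6 pairs of groups. With replicate number as a block, 33 members were called with FK228 (added: EZH2, PCGF5 and CBX7), 29 with largazole (EHMT1 and PHC2), 31 with SAHA (DNMT3A, EHMT1, EZH2, CBX7, PHC3 and KDM2B) and 10 between FK228 and largazole (SETDB1, CBX3, EZH1, PCGF5 and PHC2), and the block ended no call of a member. Equal medians of 51 ribosomal protein genes moved the median of all genes to 0.05 with FK228, 0.01 with largazole and 0.01 with SAHA, and the members that rose and fell then numbered 8 and 20, 6 and 19, and 7 and 18. The planned identity between proteins of the family was not run.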
